A study of Mus musculus with 4 samples.

Results

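B cells were taken from single-cell RNA sequencing of immune cells of brain hemispheres that bore CT2a gliomas, in WT and CaMKK2 KO mice. Cells within the tumor and cells around it were not told apart. The B cells were chosen by a gate on raw unique molecular identifiers (UMIs), each a count of 1 captured transcript. A barcode was kept when it held at least 500 detected genes and under 10% UMIs of mitochondrial genes (prefix mt-). It then needed at least 4 UMIs of Cd79a, Cd79b and Ms4a1 together, no UMI of Cd3d, Cd3e or Ncr1, and fewer than 30 UMIs of C1qa, C1qb and C1qc together. The gate returned 371 B cells, 173 of WT and 198 of CaMKK2 KO mice, out of 13960 barcodes in all and 12866 that met the limits on genes and mitochondrial UMIs. Hashtag antibodies gave 352 of them to a single mouse, 166 to WT and 186 to CaMKK2 KO mice, and these 352 cells are described here. The remaining 7 WT and 12 CaMKK2 KO cells carried hashtags of more than 1 mouse and were left out.

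Live CD45+ cells had been sorted 14 days after intracranial implantation of 50000 CT2a cells, a glioma line that grows in C57BL/6 mice, into female mice of 8 to 12 weeks. WT mice were C57BL/6J, and CaMKK2 KO mice carried a germline CaMKK2 deletion in all tissues, backcrossed to C57BL/6. Neither genotype received a treatment other than the tumor, and the cells of 4 mice of a genotype were pooled on 1 channel of the 10X platform. Differences between the genotypes and between the channels cannot be told apart. The B cells of a mouse held 116568 to 428820 UMIs together, and a gene with no UMI could be at up to 25.7 CPM in the shallowest mouse and 7.0 CPM in the deepest. These limits cover counting error only. The libraries shared 42 barcode sequences, none of them a B cell in both.

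B cells carry a membrane immunoglobulin whose signal is passed on by CD79A and CD79B, and they take up, process and present antigen on MHC class II. After activation they can switch from IgM and IgD to IgG, IgA or IgE, and some become antibody-secreting cells with large amounts of immunoglobulin RNA and of the joining chain Jchain. Camkk2 encodes a calcium and calmodulin dependent kinase that activates AMPK, CaMKI and CaMKIV. Type I and type II interferons induce antiviral genes, guanosine triphosphatases (GTPases) and MHC class I genes in most cell types, B cells included.

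The gated cells carried the B-cell markers that the gate did not use. Cd79a, a signalling chain of the B cell receptor (chr7:24897381-24902197), was used by the gate and had a UMI in 99.4% of the cells. Its level was 2011 ± 465 counts per 1000000 UMIs (CPM; SD, n = 4 mice) in WT, against 2131 ± 273 CPM in the CaMKK2 KO. The gate also used Cd79b, its partner chain (chr11:106311341-106314762), at 1212 ± 279 and 1290 ± 248 CPM, and Ms4a1, which encodes CD20 (chr19:11249675-11266241), at 510 ± 130 and 619 ± 141 CPM. These 3 genes were at 0 in the comparison gates by construction.

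Ebf1, a transcription factor that sets up the B lineage (chr11:44617317-45008091), was not used and had a UMI in 96.9% of the B cells. It was at 1416 ± 323 CPM (WT) and 1122 ± 253 CPM (CaMKK2 KO), with overlap between the genotypes. Without the cells that had the highest Scrublet doublet scores, Ebf1 was at 1781 to 2015 CPM in the WT mice and 1201 to 1480 CPM in the CaMKK2 KO mice and was called lower (log2 fold change -0.53, edgeR adjusted p = 0.0247). Without the 11 cells rich in Jchain described further on, the ranges were 1503 to 1914 and 1201 to 1480 CPM and Ebf1 was not called (-0.41, edgeR adjusted p = 0.139). Ighd, the constant region of IgD (chr12:113406604-113416324), was at 700 ± 358 and 628 ± 225 CPM, with a UMI in 82.1% of the cells. Bank1, a scaffold of B cell receptor signalling (chr3:136053363-136326066), was at 421 ± 114 and 490 ± 93.8 CPM, with a UMI in 83.8% of the cells. In T and NK cells (at least 2 UMIs of Cd3d and Cd3e or 1 of Ncr1, no UMI of the B gate, fewer than 30 C1q UMIs) Ebf1, Ighd and Bank1 had a UMI in 0.393%, 2.29% and 0.589% of 3283 cells. In a phagocyte gate (at least 30 C1q UMIs, no UMI of the other gates) the shares were 0.224%, 0.762% and 3.94% of 2475 cells. These shares are a description, since the gates chose the cells, and cells of those gates had more UMIs than B cells.

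**Figure D1:**
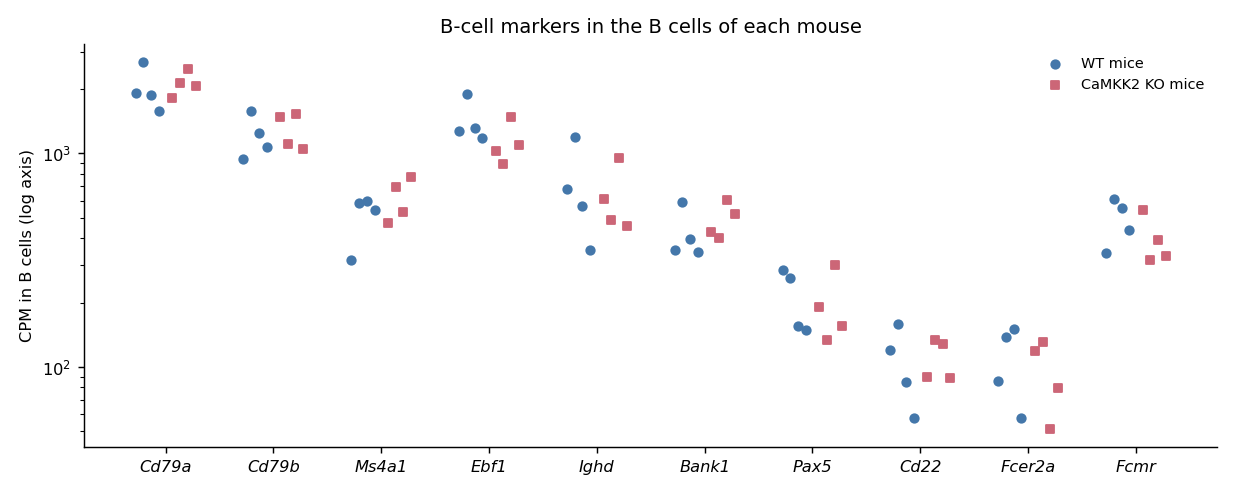
Each point is the level, in CPM on a log axis, of 1 of 10 B-cell markers in the B cells of 1 mouse, circles for 4 WT and squares for 4 CaMKK2 KO mice. Cd79a, Cd79b and Ms4a1 were part of the gate, and over all cells the points of the genotypes overlap for all 10 genes.

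All 11 genes of the B-cell marker list were detected, and together they summed to 7351 ± 1797 CPM for WT against 7251 ± 918 CPM for CaMKK2 KO. In T and NK cells the sum was 3.62 CPM. The list holds Cd79a, Cd79b and Ms4a1, so the gates set this distance in part. Pax5, the factor that maintains B-cell identity, was at 212 ± 70.1 and 194 ± 74.0 CPM. Markers of other cell types were present at different levels. Those of T and NK cells summed to 205 ± 20.9 CPM (WT) and 271 ± 44.7 CPM (CaMKK2 KO), with Cd2 the most abundant and Cd3d, Cd3e and Ncr1 at 0 by the gate. Dendritic cell markers summed to 22.7 ± 9.29 and 29.5 ± 11.3 CPM, with Xcr1 and Clec9a at 0. Glioma and brain cell markers summed to 28.5 ± 10.2 and 37.7 ± 15.4 CPM, with Gfap, Sox2, Olig1 and Col1a1 at 0. Monocyte and neutrophil markers summed to 1687 ± 922 and 1459 ± 646 CPM, up to 2855 CPM in WT mouse 3, against 1879 CPM in the phagocyte gate. Vcan was at 0. Plac8, the most abundant of them, is also a gene of the marginal zone B-cell list. Ly6c2 followed, at 2053 CPM in WT mouse 3 and at 11.3 CPM in that mouse without its Jchain-high cells, described further on.

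Macrophage and microglia markers summed to 2518 ± 465 CPM for WT against 1474 ± 1091 CPM for CaMKK2 KO, and all 15 were detected. All 8 members tested had a log2 fold change below 0, while 61.5% of all genes were above 0. Of the 8, edgeR called 0, with 2 at an unadjusted p under 0.05, against 12.3% of all genes. C1qa and C1qb, both of which the gate used, were lower in every CaMKK2 KO mouse than in any WT mouse. They were 2 of the 8 members tested, against 1.63% of all genes. C1qa was at 54.2 to 85.9 CPM (WT) and 21.5 to 46.6 CPM (CaMKK2 KO). Lyz2, a macrophage and monocyte lysozyme, was at 942 CPM in WT mouse 2 and 1301 CPM in CaMKK2 KO mouse 3, against 163 CPM or less in the other mice. Apoe, a lipid carrier of macrophages, was the most abundant of them. It was at 1716, 1043, 1158 and 1788 CPM in WT B cells and at 46.6, 1632, 34.2 and 35.2 CPM in CaMKK2 KO B cells. All CaMKK2 KO mice but mouse 2 lay below all WT mice. In that mouse Apoe was at 261 CPM without the Jchain-high cells that are described further on. Without the Jchain-high cells of all mice Apoe was called lower (log2 fold change -4.04, edgeR adjusted p = 0.00193). It was also called lower without the highest Scrublet scores (-3.95, edgeR adjusted p = 0.00118). An Apoe UMI was found in 96.4% of WT and 20.4% of CaMKK2 KO B cells, against 94.2% and 20.3% of T and NK cells, in which Apoe was at 355 and 31.5 CPM. In the phagocyte gate it was at 28639 and 2260 CPM. The share of B cells with an Apoe UMI was thus close to that of T and NK cells in each genotype, while its level in WT B cells, 1426 ± 380 CPM, was above theirs. The source of the Apoe UMIs was not tested. One WT and 1 CaMKK2 KO cell held at least 10 UMIs of Lyz2.

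Most of the cells had marker levels far from the limits of the gate. The median cell held 18 UMIs of Cd79a, Cd79b and Ms4a1 in WT and 23 in CaMKK2 KO mice. Just inside, 5 WT and 5 CaMKK2 KO cells held 4 to 7 of these UMIs, and just outside, 6 WT and 4 CaMKK2 KO cells met all other limits with 3. Of barcodes with at least 4, the limit on Cd3d, Cd3e and Ncr1 took out 30 WT and 60 CaMKK2 KO barcodes, and the limit on C1q took out another 88 and 80. The highest C1q count in a B cell was 7 in WT and 24 in CaMKK2 KO mice.

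Camkk2 itself (chr5:122731170-122779409) was measured by 42 UMIs over all B cells, below the minimum of 100 UMIs set for the test of genotype. With a minimum of 10 UMIs it was tested and not called (log2 fold change -1.37, edgeR adjusted p = 0.401). It was at 42.9, 36.8, 31.0 and 16.5 CPM in WT B cells and at 14.3, 7.0, 17.1 and 14.1 CPM in CaMKK2 KO B cells. WT mouse 4 lay below CaMKK2 KO mouse 3, so the genotypes overlapped. Without the Jchain-high cells, described further on, the WT mice lay at 21.4 to 50.8 CPM and the CaMKK2 KO mice at 6.44 to 18.0 CPM, with no overlap. Without the highest scores of Scrublet, a doublet caller, they lay at 0 to 61.0 and 6.44 to 18.8 CPM and overlapped. The means were 31.8 ± 11.3 and 13.1 ± 4.32 CPM. In the phagocyte gate Camkk2 was at 29.9 and 13.1 CPM, a log2 fold change of -1.22 (edgeR quasi-likelihood test, adjusted p = 0.00468). In T and NK cells its log2 fold change was -0.62, and it was not called (edgeR adjusted p = 0.191). Counts come from the 3′ ends of transcripts. The deleted exons are not given in the sources used here, so remaining 3′ UMIs do not test the knockout.

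The share of B cells among the cells of a mouse asked whether the genotype changed their proportion. A share does not give the number present in the tissue. B cells were 2.43%, 5.44%, 2.86% and 1.17% of cells in WT mice and 2.84%, 2.84%, 1.48% and 5.65% in CaMKK2 KO mice. The genotypes overlapped over nearly their full range, and mice of 1 genotype differed more than the means. The means were 2.97 ± 1.80% and 3.20 ± 1.75% (SD, n = 4; two-sided exact permutation test, p = 0.743, where 0.0286 is the smallest that 4 mice against 4 allow). The 4 WT mice gave 27, 79, 42 and 18 B cells and the 4 CaMKK2 KO mice 40, 51, 25 and 70. The sign of this small difference turned when B cells were counted as a share of B, T and NK cells alone, where WT mice had 12.04 ± 6.20% and CaMKK2 KO mice 11.2 ± 7.99% (exact permutation p = 0.83). It also turned without WT mouse 4 (-0.37 percentage points) and without CaMKK2 KO mouse 4 (-0.59 percentage points).

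B cells of CaMKK2 KO mice held more UMIs per cell. The median B cell had 3221, 3684, 3673 and 3494 UMIs in the 4 WT mice and 4657, 5872, 4061 and 5362 UMIs in the 4 CaMKK2 KO mice. Every CaMKK2 KO mouse lay above every WT mouse. The means of these medians were 3518 ± 216 and 4988 ± 794 (two-sided exact permutation test, p = 0.0286, the smallest p that this design allows). At least 5000 UMIs were found in 19 of 166 WT cells (11.4%) and in 99 of 186 CaMKK2 KO cells (53.2%). This comparison was added after the values had been seen. Without any 1 of the WT mice the exact permutation test gave p = 0.0571 at differences of 1371 to 1526 UMIs. Without any 1 CaMKK2 KO mouse the same exact test gave p = 0.0286.

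T and NK cells of the same channels did not show this order. Their median UMIs were 9269 ± 415 in WT and 8199 ± 1805 in CaMKK2 KO mice (exact permutation p = 0.314), and in the phagocyte gate they were 14828 ± 315 and 14395 ± 1331 (exact permutation p = 0.83). Divided by the T and NK cells of the same mouse, UMIs per B cell were 0.362, 0.397, 0.406 and 0.355 in WT and 0.536, 0.813, 0.387 and 0.840 in CaMKK2 KO mice. CaMKK2 KO mouse 3 fell within the WT range, and the difference did not pass the test (0.380 ± 0.0255 against 0.644 ± 0.220, exact permutation p = 0.0857). Genes per B cell were 1397 ± 77.1 in WT and 1765 ± 193 in CaMKK2 KO mice (exact permutation p = 0.0286). When every cell was thinned to 2000 UMIs, which left out 1 CaMKK2 KO cell, the order turned, with 916 ± 5.52 genes in WT and 903 ± 4.92 genes in CaMKK2 KO B cells (exact permutation p = 0.0286). The mitochondrial share of the median B cell was 4.80 ± 0.242% and 4.71 ± 0.402%. Hashtag UMIs per B cell were 1351 ± 287 and 1353 ± 231.

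**Figure D2:**
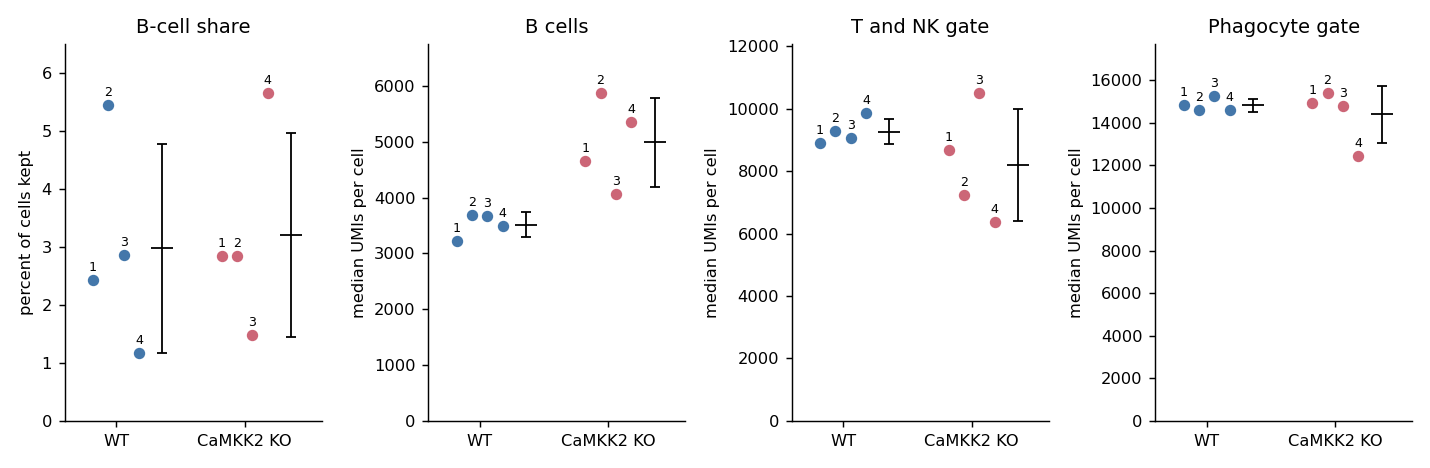
Points are mice, numbered by hashtag, with the mean and SD of 4 mice beside them, for the B-cell share in percent of cells kept and for the median UMIs per cell in B cells, T and NK cells and the phagocyte gate. CaMKK2 KO mice lie at 4061 to 5872 UMIs per B cell, above the WT range of 3221 to 3684, and overlap with WT mice in the other panels.

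Nearly all B cells carried IgM or IgD. By the heavy chain with most UMIs, at least 3, 334 cells were IgM or IgD, 12 IgG, 4 IgA and none IgE, and 2 could not be typed. Of the IgM or IgD cells, 289 had an Ighd UMI. Kappa was the light chain of 320 cells and lambda of 30. Ighm, the constant region of IgM (chr12:113418558-113422730), was at 2947 ± 536 CPM (WT) and 2612 ± 471 CPM (CaMKK2 KO). It had a UMI in 38.3% of T and NK cells, at 135 and 57.9 CPM, and the source of these UMIs was not tested. Class-switched cells made up 6.73 ± 4.07% (WT) and 4.10 ± 3.34% (CaMKK2 KO) of typed B cells (exact permutation p = 0.400). Without the Jchain-high cells, described in the next paragraph, they made up 3.37 ± 1.98% and 0.658 ± 1.32% (exact permutation p = 0.0857). Lambda cells were 6.98 ± 7.13% and 9.27 ± 1.73% (exact permutation p = 0.543). Adjusted over the shares of IgM or IgD, class-switched and lambda cells, each p was 0.543. Without WT mouse 3, where 7 of 42 cells were lambda, the lambda difference was 5.52 percentage points (exact permutation p = 0.0286), and without WT mouse 4, where all 18 cells were kappa, it was -0.04.

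Of the 352 cells, 11 stood apart by Jchain, at 69 to 2587 UMIs each. Cells with at least 5 Jchain UMIs are called Jchain-high here, and 4 came from WT and 7 from CaMKK2 KO mice. They held 99.9% of the Jchain UMIs of WT and 99.8% of those of CaMKK2 KO B cells. All 11 were class-switched, 8 IgG and 3 IgA, and they made up 11 of the 16 class-switched cells. Immunoglobulin genes took 33.6% to 72.0% of their UMIs in WT and 7.89% to 52.5% in CaMKK2 KO mice, against a median of 1.77% and 1.45% in the other B cells, where the highest value was 6.03%. They held 12876 to 66009 UMIs each. Xbp1, a transcription factor of antibody secretion, was found in all 11. Prdm1, which represses the B-cell program, was found in 8, and Sdc1, the plasma cell surface protein CD138, in 7. Irf4, also taken as a plasma cell marker, was found in 8. Mzb1, another such marker, was found in only 4, at no more than 1 UMI each. Ms4a1 was found in 3 of the 11 cells and Ighm in 1. The cell with 69 Jchain UMIs, of CaMKK2 KO mouse 2, held 1 UMI of Xbp1, none of Prdm1 or Sdc1, and 16 of Ms4a1. At least 5 UMIs of the division genes Mki67 and Top2a were found in 4 Jchain-high cells, all of CaMKK2 KO mice, and in 2 other B cells, both of WT mice.

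Variable genes could be read almost only in these cells, since 3′ counts of other B cells held few such UMIs. A heavy-chain variable gene with at least 3 UMIs was found in 10 cells and a kappa variable gene in 9. The lambda variable gene Iglv1 was found in 9 cells of 6 mice. Several of these cells also held a kappa variable gene, and why was not tested. The 9 cells with both a heavy and a light variable gene carried 9 different pairs. The most used heavy-chain variable gene, Ighv1-5, was found in 2 cells, of CaMKK2 KO mice 1 and 2, with the kappa genes Igkv1-135 and Igkv3-4. Variable genes are near-identical families, so the assignments of reads to single members are uncertain.

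The Jchain-high cells weighed on the sums. They were 2.41% of WT and 3.76% of CaMKK2 KO B cells but held 15.5% and 17.9% of the UMIs. Igkc, the kappa constant region (chr6:70726435-70726966), was at 60257, 10852, 180807 and 58105 CPM in the WT mice, against 50191, 38524, 7059 and 26099 CPM in the CaMKK2 KO mice. The lowest values of each genotype, WT mouse 2 and CaMKK2 KO mouse 3, were those of the mice with no Jchain-high cell. Immunoglobulin genes were 1.85% and 1.29% of B-cell UMIs in these mice and up to 23.8% in WT mouse 3. For this reason counts of genes are also given without the Jchain-high cells.

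**Figure D3:**
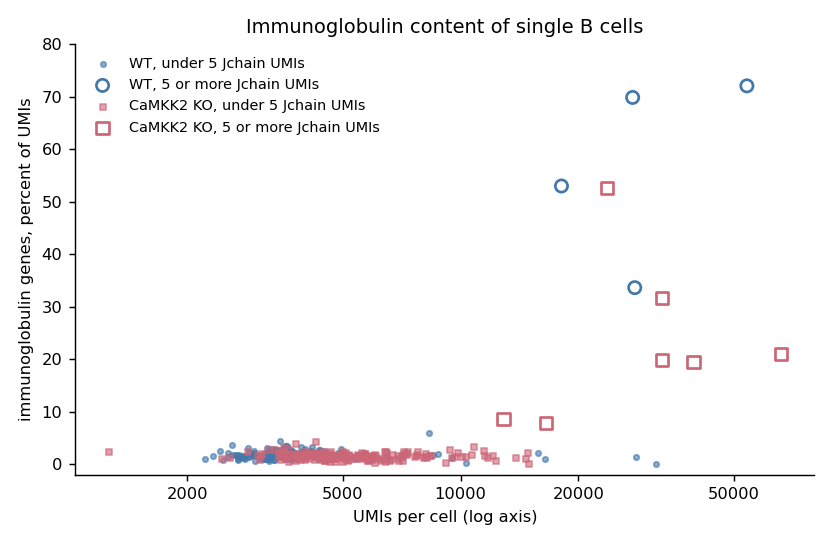
Each symbol is 1 of 352 B cells, with its UMIs on a log axis and the percent of them in immunoglobulin genes. The 11 Jchain-high cells, drawn as large open symbols, lie at 7.89% to 72.0%, above all other cells.

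To ask which genes differed between the genotypes, UMIs were summed over the B cells of each mouse and tested with edgeR's quasi-likelihood method in 2692 genes with at least 100 UMIs. A pair of genes was called at an adjusted p under 0.05, 0.0743% of those tested, and both were higher in CaMKK2 KO mice. No gene was called lower. At an unadjusted p under 0.05 there were 331 genes (12.3%), 247 of them higher (9.18%). The 4 mice of each genotype did not overlap in 165 genes (6.13%), with CaMKK2 KO mice higher in 121 (4.49%) and lower in 44 (1.63%). Ifi44, Cd72, Isg15, Usp18, Rtp4, Slfn5, Apoe, Fcrl1, S1pr1, Cd69, C1qa, C1qb, Csf1r and Pax5 were chosen with the values already in view. So were the genes of the comparison with T and NK cells and any further gene outside the naming rule. The median log2 fold change of all genes tested was 0.10, and 61.5% were above 0. TMM scaling moved that median to 0.00, a shift of 0.10.

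Gm8797, a predicted gene (chr3:5750806-5751295), was at 8.58, 15.3, 7.75 and 0 CPM in WT B cells and at 179, 135, 111 and 225 CPM in CaMKK2 KO B cells. Each CaMKK2 KO mouse lay far above each WT mouse. The log2 fold change was 4.06 ± 0.43 (SE; edgeR adjusted p = 0.00110), from 225 UMIs in all. Its reads may be shared with near-identical copies elsewhere in the genome, so its count is uncertain.

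Wls, which carries Wnt proteins to the cell surface for secretion (chr3:159839672-159938664), was at 8.58, 27.6, 19.4 and 24.7 CPM in the WT mice, against 126, 117, 94.1 and 96.1 CPM in the CaMKK2 KO mice. All CaMKK2 KO mice lay above all WT mice. The log2 fold change was 2.31 ± 0.30 (SE; edgeR adjusted p = 0.00554), from 155 UMIs. Without WT mouse 3 it was 2.25 and was no longer called (edgeR adjusted p = 0.0671). Gm8797 and Wls were also higher in the T and NK cells of the same CaMKK2 KO mice, with log2 fold changes of 4.67 and 3.33, and in the phagocyte gate, at 4.65 and 0.90. Those gates and B cells share their mice and channels. Both genes belong to a list of 14 that was chosen because they stood apart in other classes of these samples, so their direction here is not independent evidence. Of its 5 members tested in B cells these 2 were called higher and none lower, against 0.0743% of all genes called higher. Without the Jchain-high cells, and also without the highest Scrublet scores, 2 members were called higher and 2 lower.

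The number of calls depended on few cells. Without the Jchain-high cells 7 genes were called of 2360 tested (0.297%), 4 higher (0.169%) and 3 lower, and with the highest Scrublet doublet scores left out 41 of 2281 (1.8%), 28 higher (1.23%) and 13 lower. The Scrublet step took out 7 WT and 8 CaMKK2 KO B cells, among them all 11 Jchain-high cells. The 7 genes called without Jchain-high cells were Gm8797, Wls, Ifi44 and Ly6a, higher, and Apoe, Gm47283 and Ighg2b, lower, with Apoe at a log2 fold change of -4.04 (edgeR adjusted p = 0.00193). DESeq2 called 7 genes, 5 higher and 2 lower, and limma with cells weighted equally called 2. Without WT mouse 3, CaMKK2 KO mouse 2 and CaMKK2 KO mouse 3 the counts were 1, 4 and 7. Gm8797 was called under every alternative run. So was Wls, except without WT mouse 3 and at a minimum of 200 UMIs per gene, where it was not tested.

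Of the gene lists described, the type I interferon response genes and the interferon-inducible GTPases had the highest medians, though edgeR called none of their members in the full set of cells. Of 34 type I interferon response genes, 25 were tested, and 0 were called, with 17 at an unadjusted p under 0.05, against 12.3% of all genes. All 25 had a log2 fold change above 0, with a median of 1.149 against 0.10 for all genes. The minimum of UMIs for the test was set on both genotypes together, in this list and all others. A member could thus be tested because it was high in CaMKK2 KO mice. Usp18, with 103 UMIs in all, was at 0 to 11.6 CPM in WT and 25.7 to 166 CPM in CaMKK2 KO mice. The count above 0 and the median may therefore rest in part on that minimum. In 4 of the 25 all CaMKK2 KO mice lay above all WT mice, against 4.49% of all genes. Without the Jchain-high cells the median was 1.34 and 1 of 22 tested was called higher, against 0.169% of all genes. Without the highest Scrublet scores it was 1.47 and 6 of 22 were called higher, against 1.23% of all genes. Of 16 interferon-inducible GTPases, which act on pathogen vacuoles in the cytosol, 8 were tested and 0 called. All 8 were above 0, against 61.5% of all genes, with a median of 1.55. Among the Ifi200 family and Ifi44 genes, DNA sensors and related proteins, 6 of 16 were tested, with 0 called and a median of 0.42.

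Promoters of these genes are shown because a known control element of interferon response, the interferon-stimulated response element, can be looked for in them. The sequences are the RefSeq windows of 300 bases on build GRCm38.p6, from 250 before to 50 after the RefSeq gene start, 5′ to 3′ on the strand of the gene. Capitals mark every match, on either strand, to a core of that element searched as GAAA, any 2 bases and GAAA, and overlapping matches run together. Isg15, Slfn5 and Igtp stand for the interferon lists, and Wls is a called gene.
Isg15, chr4:156200769-156201068, minus strand: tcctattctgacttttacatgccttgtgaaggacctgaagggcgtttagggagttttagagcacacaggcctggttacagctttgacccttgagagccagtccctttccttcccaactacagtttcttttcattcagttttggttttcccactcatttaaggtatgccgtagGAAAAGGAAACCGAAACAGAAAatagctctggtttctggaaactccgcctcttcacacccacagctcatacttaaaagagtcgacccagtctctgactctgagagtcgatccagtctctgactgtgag
Slfn5, chr11:82951852-82952151, plus strand: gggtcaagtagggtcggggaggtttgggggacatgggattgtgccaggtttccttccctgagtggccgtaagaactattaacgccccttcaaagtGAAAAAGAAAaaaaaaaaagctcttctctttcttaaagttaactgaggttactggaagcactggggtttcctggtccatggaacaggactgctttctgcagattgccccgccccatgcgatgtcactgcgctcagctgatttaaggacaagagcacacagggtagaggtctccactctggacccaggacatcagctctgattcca
Igtp, chr11:58199306-58199605, plus strand: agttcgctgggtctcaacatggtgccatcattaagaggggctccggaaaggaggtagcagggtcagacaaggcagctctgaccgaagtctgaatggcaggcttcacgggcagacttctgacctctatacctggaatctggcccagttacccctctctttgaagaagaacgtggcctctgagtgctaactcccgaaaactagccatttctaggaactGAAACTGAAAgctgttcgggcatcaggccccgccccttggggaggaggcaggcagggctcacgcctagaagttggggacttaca
Wls, chr3:159839400-159839699, plus strand: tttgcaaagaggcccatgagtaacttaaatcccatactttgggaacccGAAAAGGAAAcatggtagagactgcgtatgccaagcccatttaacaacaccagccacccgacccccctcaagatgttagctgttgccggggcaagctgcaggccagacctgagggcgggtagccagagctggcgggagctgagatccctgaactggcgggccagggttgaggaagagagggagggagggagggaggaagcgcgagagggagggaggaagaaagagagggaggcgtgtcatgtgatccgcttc
The matches begin 78 bases before the gene start in Isg15, with 3 overlapping, 155 before it in Slfn5, 34 in Igtp and 202 in Wls. A match was found in 10 of the 17 tested type I interferon response genes that had a window (58.8%) and in 5 of 6 GTPases (83.3%). Among all 27025 RefSeq windows 3.99% held one, and among those of 2162 genes tested in B cells 5.23% did. A match describes the letters only and was not tested as a binding site.

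Isg15, a ubiquitin-like modifier induced by interferon (chr4:156199424-156200818), was at 8.58, 15.3, 65.8 and 16.5 CPM in the WT mice, against 104, 93.3, 77.0 and 387 CPM in the CaMKK2 KO mice. The genotypes did not overlap, and CaMKK2 KO mouse 4 was several times above the others. The log2 fold change was 2.53 ± 0.64 (SE), and it was not called (edgeR adjusted p = 0.204). It was 1.63 without CaMKK2 KO mouse 4 and 3.59 without WT mouse 3, not called in either case (edgeR adjusted p = 0.553 and 0.395). Usp18, which removes that modifier, had 0, 9.20, 11.6 and 8.24 CPM in the WT mice, against 35.9, 25.7, 34.2 and 166 CPM in the CaMKK2 KO mice (log2 fold change 3.01 ± 0.80, edgeR adjusted p = 0.234). Slfn5, a member of the Schlafen family, had 8.58, 27.6, 50.4 and 16.5 CPM against 93.3, 79.3, 103 and 368 CPM (2.49 ± 0.59, edgeR adjusted p = 0.179). Rtp4 had 17.2, 27.6, 27.1 and 24.7 CPM against 53.8, 63.0, 51.3 and 155 CPM (1.75 ± 0.44, edgeR adjusted p = 0.204). In each of these genes mouse 4 was the highest CaMKK2 KO mouse, and the other CaMKK2 KO mice still lay above all WT mice. Without mouse 4 Usp18, Slfn5 and Rtp4 were not tested. Without the highest Scrublet scores Isg15 (log2 fold change 4.62, edgeR adjusted p = 0.0141), Slfn5 (3.07, edgeR adjusted p = 0.0174) and Rtp4 (2.11, edgeR adjusted p = 0.0471) were called higher, and Usp18 was not tested.

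Ifi44, an interferon-induced gene (chr3:151730922-151749960), was at 0, 0, 3.87 and 0 CPM in the WT mice, against 64.6, 46.6, 34.2 and 232 CPM in the CaMKK2 KO mice. A single WT UMI stood against 141 in CaMKK2 KO B cells, a ratio of 92.7 per UMI sequenced with a 95% counting interval of 16.4 to 3685. CaMKK2 KO mouse 4 held 99 of the 141, and without it the ratio was 41.9 (7.12 to 1693). The fitted log2 fold change of 5.94 ± 1.07 depends on the prior count and was not called (edgeR adjusted p = 0.0901). It was called by DESeq2 (adjusted p = 0.000644), at a minimum of 10 UMIs (edgeR adjusted p = 0.00679) and without the Jchain-high cells (edgeR adjusted p = 0.0259). Without CaMKK2 KO mouse 4 it was not tested. The most abundant members of the interferon list were Ly6e, at 1676 ± 327 CPM for WT against 2019 ± 234 CPM for CaMKK2 KO, and Ifi27l2a, at 736 ± 451 and 1549 ± 881 CPM, which was called without the highest Scrublet scores (log2 fold change 1.85, edgeR adjusted p = 0.0147). Ly6a, which encodes the surface protein Sca-1, was at 446, 469, 748 and 1154 CPM in the WT mice, against 1051, 1532, 693 and 1831 CPM in the CaMKK2 KO mice. The genotypes overlapped (log2 fold change 0.87 ± 0.34, edgeR adjusted p = 0.358). Without the Jchain-high cells the WT mice lay at 315 to 525 CPM and the CaMKK2 KO mice at 693 to 1699 CPM, and Ly6a was called (log2 fold change 1.46, edgeR adjusted p = 0.0200). Samhd1, which limits the nucleotide pool, was at 357 ± 143 and 515 ± 231 CPM.

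Summed over the type I interferon list, B cells were at 3234, 5068, 5740 and 5852 CPM in the WT mice, against 7064, 7236, 6281 and 14208 CPM in the CaMKK2 KO mice. All CaMKK2 KO mice lay above all WT mice, 3 of them by little. The percent of UMIs in the median B cell, which single large cells cannot set, was 0.309, 0.514, 0.494 and 0.541 in WT and 0.583, 0.80, 0.542 and 1.25 in CaMKK2 KO mice. On that scale CaMKK2 KO mouse 3 and WT mouse 4 were level. In T and NK cells the list was at 2197, 4526, 5110 and 3978 CPM against 6738, 6511, 4846 and 9950 CPM, and in the phagocyte gate at 3821, 9462, 10927 and 9668 CPM against 12682, 13541, 9046 and 18434 CPM. CaMKK2 KO mouse 4 was the highest and WT mouse 1 the lowest in all 3 gates. Without CaMKK2 KO mouse 4 the median log2 fold change of the list in B cells was 0.66. That median is over fewer members, since Usp18, Slfn5 and Rtp4 were then not tested.

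**Figure D4:**
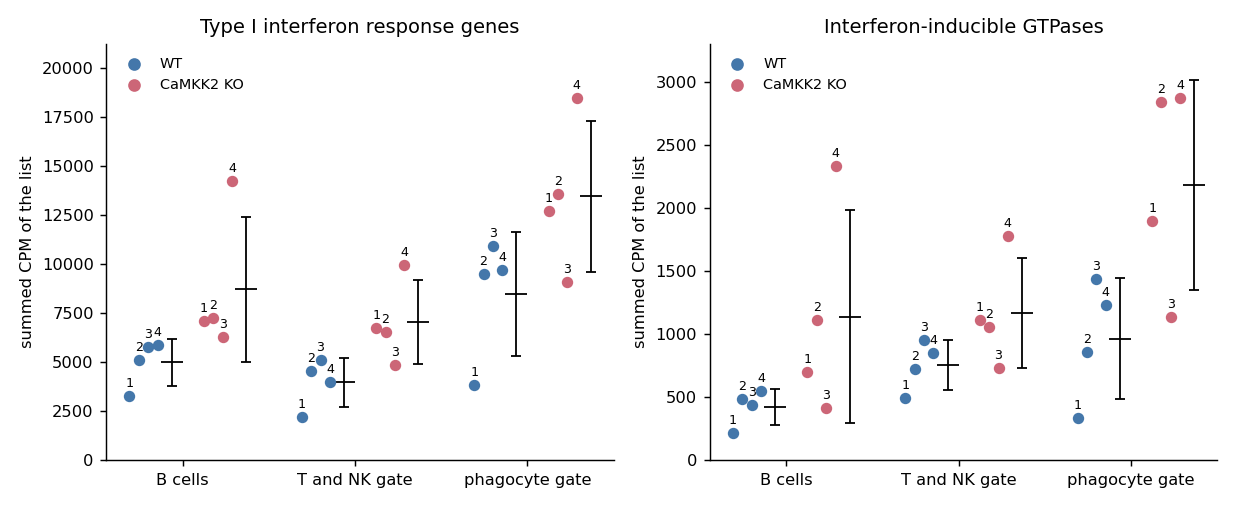
Summed levels, in CPM, of the type I interferon response genes and of the interferon-inducible GTPases are plotted for each mouse, numbered by hashtag, in B cells, T and NK cells and the phagocyte gate, with the mean and SD of 4 mice. CaMKK2 KO mouse 4 is the highest point in each gate, at 14208 CPM of the first list in B cells.

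Of the GTPases, Ifi47 was at 73.3 ± 55.5 CPM (WT) and 246 ± 209 CPM (CaMKK2 KO), and Irgm1 at 41.8 ± 22.6 and 165 ± 114 CPM. Gbp7 was at 56.0 ± 25.8 and 135 ± 115 CPM. CaMKK2 KO mouse 4 was the highest mouse for each of these, and without it the log2 fold change of Gbp7 went from 1.28 to 0.48 and that of Ifi47 from 1.82 to 1.10. Igtp had 25.7, 24.5, 31.0 and 41.2 CPM in the WT mice, against 104, 152, 25.7 and 265 CPM in the CaMKK2 KO mice. CaMKK2 KO mouse 3 was within the WT range for Igtp (log2 fold change 2.31 ± 0.52, edgeR adjusted p = 0.176), and no GTPase had mice that did not overlap. Igtp was called higher without that mouse (2.56, edgeR adjusted p = 0.0141) and without the highest Scrublet scores (2.48, edgeR adjusted p = 0.0468).

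MHC class I and peptide loading genes, which display peptides to CD8 T cells, had a median log2 fold change of 0.52. Of 15 genes 14 were tested, and 0 were called. Of the 14, 13 were above 0, against 61.5% of all genes, and 8 were at an unadjusted p under 0.05, against 12.3%. In 2 of the 14 all CaMKK2 KO mice lay above all WT mice, against 4.49% of all genes. B2m, the invariant chain of class I, was at 1819, 1672, 2340 and 2291 CPM in the WT mice, against 3114, 2463, 1994 and 3367 CPM in the CaMKK2 KO mice, with CaMKK2 KO mouse 3 in the WT range (log2 fold change 0.43 ± 0.20, edgeR adjusted p = 0.406). H2-K1 was at 1722 ± 411 and 2360 ± 341 CPM, H2-D1 at 1803 ± 385 and 2299 ± 137 CPM, and the immunoproteasome subunit Psmb8 at 391 ± 99.2 and 569 ± 204 CPM. Without the highest Scrublet scores 3 members were called higher, against 1.23% of all genes. B2m was among the 3 (0.57, edgeR adjusted p = 0.0471), and the median of the list was 0.63.

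MHC class II genes were by far the most abundant presentation genes, at 23005 ± 2578 CPM for WT against 29021 ± 8052 CPM for CaMKK2 KO. All 12 were tested, 0 were called and 0 reached an unadjusted p under 0.05. The median log2 fold change was 0.37, with all 12 above 0, against 61.5% of all genes. Cd74, the invariant chain that guides class II molecules, had a UMI in every B cell and was at 11840 ± 1427 and 14233 ± 2624 CPM. H2-Aa was at 2771, 3912, 3161 and 3198 CPM in the WT mice, against 3544, 3346, 7102 and 3632 CPM in the CaMKK2 KO mice, where mouse 3 alone was outside the WT range. H2-Eb1 and H2-Ab1 had their highest value in the same mouse, 6632 and 5844 CPM. Without it the median of the list was 0.12. The same mouse had the highest level of Lyz2 (1301 CPM) and of the macrophage genes Tyrobp (522 CPM) and Csf1r (94.1 CPM) in B cells. Without the 2 cells that held at least 10 Lyz2 UMIs, 1 of each genotype, the median of the list was 0.21, and the log2 fold change went from 0.43 to 0.22 for H2-Aa, from 0.35 to 0.11 for H2-Eb1 and from 0.43 to 0.20 for H2-Ab1. In the phagocyte gate Cd74, H2-Aa, H2-Eb1 and H2-Ab1 were higher in CaMKK2 KO mice, with log2 fold changes of 1.71, 1.93, 2.16 and 2.11 (edgeR adjusted p of 0.0351, 0.0258, 0.0148 and 0.0204). The difference from B cells was not tested against that gate.

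The B cell receptor and its signalling genes had a median log2 fold change of 0.01 in 20 tested genes, with 0 called. The list named after inhibitory coreceptors, not all of whose members are inhibitory, had a median of 0.19 in 9 tested genes, with 0 called. Inhibitory coreceptors raise the threshold of receptor signalling. Cd72, one of them (chr4:43446462-43454628), was at 94.4, 82.8, 124 and 107 CPM in the WT mice, against 197, 250, 188 and 218 CPM in the CaMKK2 KO mice. The ranges were apart, but the gene was not called (log2 fold change 1.08 ± 0.23, edgeR adjusted p = 0.176). Fcrl1, another member of this list but not an inhibitory coreceptor, was at 72.8 ± 22.1 and 120 ± 9.53 CPM, also with no overlap (0.72 ± 0.26, edgeR adjusted p = 0.316). The phosphatase Ptpn6 was at 162 ± 31.1 and 276 ± 98.2 CPM, Siglecg at 236 ± 24.1 and 221 ± 25.0 CPM, Fcrla at 285 ± 139 and 207 ± 76.2 CPM, and the lipid phosphatase Inpp5d at 158 ± 14.8 and 184 ± 47.2 CPM.

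B-lineage transcription factors had a median log2 fold change of -0.14 in 18 tested genes, with 0 called. Mef2c was at 727 ± 103 and 887 ± 169 CPM, Klf2, which controls lymphocyte traffic, at 651 ± 165 and 546 ± 125 CPM, and Foxp1 at 623 ± 152 and 520 ± 132 CPM. Follicular B-cell genes had a median of -0.23 in 10 genes, with 0 called. Fcmr, the IgM receptor, was at 487 ± 121 and 397 ± 105 CPM. S1pr1, the receptor by which lymphocytes leave tissue, was at 163, 209, 159 and 190 CPM in the WT mice, against 129, 74.6, 145 and 103 CPM in the CaMKK2 KO mice. The genotypes did not overlap, and the gene was not called (log2 fold change -0.73 ± 0.25, edgeR adjusted p = 0.311). It was called lower without the highest Scrublet scores (-0.97, edgeR adjusted p = 0.0400). Cd69, an early activation antigen that opposes S1pr1 at the cell surface, was at 317, 368, 364 and 486 CPM in the WT mice, against 696, 574, 488 and 863 CPM in the CaMKK2 KO mice. The highest WT mouse was just below the lowest CaMKK2 KO mouse (0.78 ± 0.22, edgeR adjusted p = 0.241).

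Genes of other B-cell subsets were found at different levels. Germinal center genes were measured by 94 UMIs over all B cells, and none of 7 reached the 100 UMIs needed for the test. Of 11 genes of immature and precursor B cells, Rag1, Rag2, Igll1, Vpreb2 and Dntt were at 0. The 6 detected held 879 UMIs, 496 of them of Vpreb3, and the list summed to 376 ± 83.2 CPM (WT) and 468 ± 82.7 CPM (CaMKK2 KO). Vpreb3 and Cd24a were tested, with 0 called and a median log2 fold change of 0.40, or 0.09 without the Jchain-high cells. Of 9 marginal zone genes 4 were tested and of 8 B-1 and age-associated genes 1 was, with 0 called. The marginal zone genes summed to 905 ± 275 CPM (WT) and 1177 ± 413 CPM (CaMKK2 KO), with 1708 of their 2324 UMIs in Plac8. The lists of homing, costimulatory, cytokine and survival, immediate early, heat shock, cell cycle and calcium kinase genes had 6 to 18 tested members each, 0 called, and medians of 0.10 to 0.36. Without the Jchain-high cells the cell cycle median was -0.97, over the 2 genes still tested, the homing median was 0.06, the immediate early median 0.04 and the calcium kinase median -0.05. The 10 tested immunoglobulin constant genes had a median of -0.23, with 0 called.

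**Figure D5:**
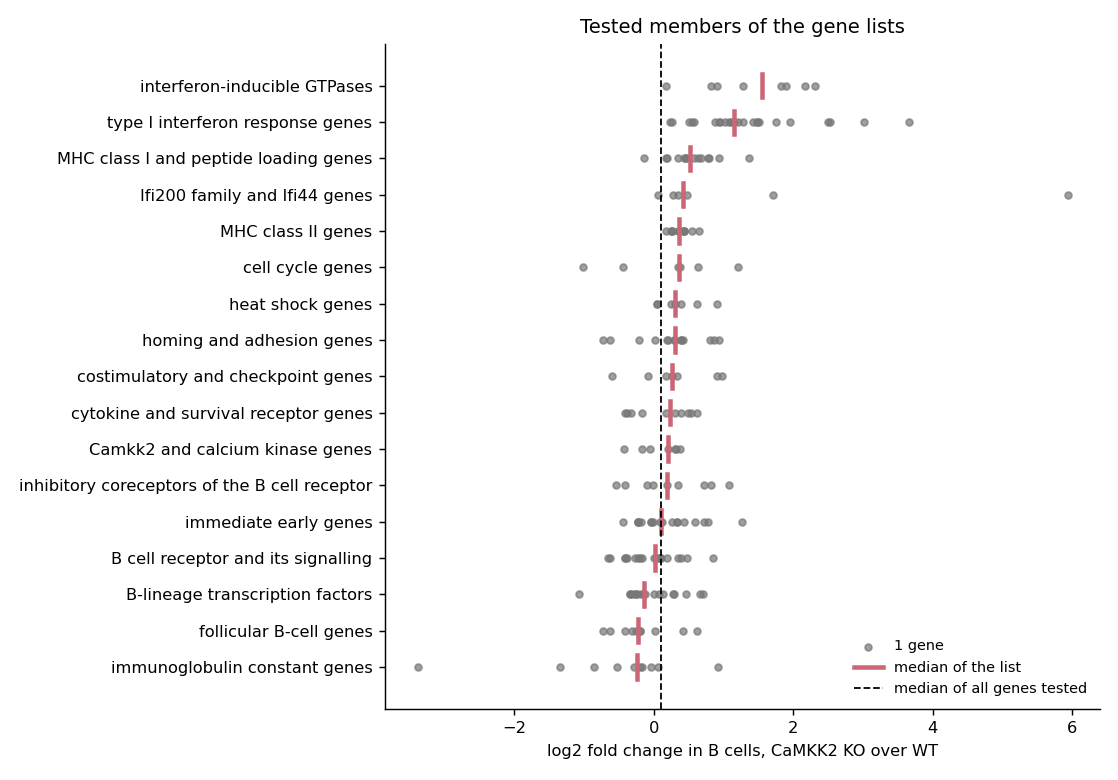
Each dot is the log2 fold change in B cells, CaMKK2 KO over WT, of 1 tested gene of the list named at the left, with the median of the list as a bar and the median of all 2692 genes, 0.10, as a dashed line. The interferon-inducible GTPases and the type I interferon response genes have the highest medians, 1.55 and 1.149.

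Whether the genotype effect in B cells differed from that in T and NK cells of the same mice was tested by an interaction term in 2644 genes. No gene was called by edgeR (0.0% of those tested), with 341 (12.9%) at an unadjusted p under 0.05. The lowest adjusted p, 0.162, was that of Cd72, whose log2 fold change was 1.08 in B cells and -0.30 in T and NK cells. Isg15, Usp18, Rtp4 and Slfn5 had differences of 1.39, 2.51, 1.18 and 1.59 between the cell classes, at edgeR adjusted p of 0.198, 0.186, 0.186 and 0.186. Larger values in B cells for these genes were therefore not shown. Without the Jchain-high cells 3 of 2319 genes were called, Ankrd44, Lgals3 and Ighm, with differences (B cells minus T and NK cells) of -1.13, -2.63 and 1.06, each at an edgeR adjusted p of 0.0339. For Ighm the log2 fold change was -0.15 in B cells (edgeR adjusted p = 0.601) and -1.20 in T and NK cells (edgeR adjusted p = 0.00485), so the larger change lay in T and NK cells.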

How the data were processed

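Single-cell RNA and hashtag antibody counts of 2 libraries, 1 per genotype, were analysed. Per the submitters' processing notes, reads were handled with bcl2fastq 2.20, Cell Ranger 4.0.0, STAR 2.7.5c and Seurat on build mm10. The authors deposited raw UMI counts per gene and hashtag for each barcode, with no normalisation. The members and the gene lists were chosen with earlier results of these data known.

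Mice were assigned by Seurat 5.3.0 HTODemux (quantile 0.99), which also removed hashtag doublets. No other doublet caller entered the values as reported, and Scrublet (scanpy 1.11.5) was an alternative. Counts were summed per mouse over each gate and scaled to CPM by all UMIs of those cells. Genes with at least 100 UMIs were tested with edgeR 4.0.16 (quasi-likelihood, library sizes as totals, Benjamini-Hochberg adjustment at 0.05), with DESeq2 1.42.0 and limma 3.58.1 as alternatives. The 4 mice of a genotype are the replicates. They shared a channel, so p-values do not cover spread between channels. Values per mouse were compared by two-sided exact permutation tests over all splits of the mice, computed with numpy 2.4.6. The exact binomial interval behind the Ifi44 ratio used scipy 1.17.1. On simulated counts for 2537 genes, 160 of them changed, edgeR recovered 75.6% of the changed genes, with 4.72% false among the calls. Recovery was 53.6% at a log2 change of 1 and 100% at 2. The simulation drew each gene from the fitted dispersion trend, with no mouse or cell that stood apart. Such mice and cells were present in the data, where Isg15 and Usp18 had log2 fold changes above 2 and were not called. The recovered shares therefore do not bound what was missed here.

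Genes were named by rule: the 6 markers, Camkk2, up to 12 called genes with the largest change in each direction and no overlap between genotypes, called members of lists, and up to 4 members of a described list with the highest CPM. Gene positions are those of GENCODE M21 (mm10). Alternatives changed the scaling, the minimum of UMIs, the gate limits, hashtag and doublet rules, the tool and the mice included. A few genes of the lists are not reported here by name.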

Additional observations from a re-analysis of the deposited data

Results flagged for a closer look

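Among 170 groups of 4 mice, 17 had a mouse that stood apart from the other 3 by more than the limit of Dixon's test, which chance passes in about 1 of 20 groups. Many of these groups share mice and genes.

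CaMKK2 KO mouse 4 was highest for the type I interferon response genes together (14208 CPM), for the Ifi200 family and Ifi44 genes together (2598 CPM), and for Ifi44 (232 CPM), Isg15 (387 CPM), Usp18 (166 CPM), Rtp4 (155 CPM) and Slfn5 (368 CPM). In WT, mouse 3 was highest for Isg15 (65.8 CPM) and for Ifi44 (3.87 CPM, a single UMI).

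CaMKK2 KO mouse 3 was highest for the MHC class II genes together (40988 CPM), and for H2-Aa (7102 CPM), H2-Eb1 (6632 CPM) and H2-Ab1 (5844 CPM). This mouse had 25 B cells, and the highest level of Lyz2 in B cells (1301 CPM). Without the cells with at least 10 Lyz2 UMIs the log2 fold change of H2-Eb1 was 0.11, against 0.35 with them.

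CaMKK2 KO mouse 2 was highest for Apoe (1632 CPM) and for the genes apart between the genotypes in other classes (2180 CPM), a list that holds Apoe. Without its 3 Jchain-high cells Apoe was at 261 CPM in this mouse. WT mouse 2 was highest for the B cell receptor and its signalling genes (11892 CPM), and it had no Jchain-high cell. WT mouse 3 was lowest for Camkk2 and calcium kinase genes (1410 CPM), and Jchain-high cells held 31.6% of its B-cell UMIs.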

How the results depend on the processing

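Gm8797 and Wls were the calls as reported. Calls numbered 1 at a minimum of 200 UMIs, 8 at 10 UMIs, 41 without the highest Scrublet scores and 7 with DESeq2. Among the alternatives chosen after seeing the data, they numbered 7 without the Jchain-high cells and 12 without Jchain-high cells and cells with at least 10 Lyz2 UMIs. Leaving out 1 mouse gave 1 to 7 calls. Wls was lost without WT mouse 3 (edgeR adjusted p = 0.0671). The difference in B-cell share, CaMKK2 KO minus WT, was -0.89 percentage points of lymphocytes and ran from -0.59 to 1.05 without 1 mouse. That in UMIs per B cell ran from 1175 to 1779 without 1 mouse and that in the lambda share from -0.0403 to 5.52 percentage points. The median log2 fold change of the type I interferon response genes ran, without 1 mouse, from 0.66 (CaMKK2 KO mouse 4) to 1.35, and was 1.47 without the highest Scrublet scores. That of H2-Eb1 ran, without 1 mouse, from -0.0022 (CaMKK2 KO mouse 3) to 0.47. The comparison with T and NK cells gave 3 calls without the Jchain-high cells. No paired analysis was possible because the hashtag numbers shared by the genotypes only name antibodies and the mice are different animals. The minimum of 100 UMIs was a chosen setting, and at 10 UMIs 8899 genes were tested in place of 2692. The cause of these changes was not tested.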

Other observations

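Further genes of the lists had mice that did not overlap, none of them called (edgeR) in the full set of cells. They were picked for that, with the values known, and 6.13% of all genes tested did the same. Cd86, a costimulatory ligand for T cells, was at 112, 135, 105 and 107 CPM in WT B cells, against 158, 198, 163 and 373 CPM in CaMKK2 KO B cells (edgeR adjusted p = 0.269). Tapbp, which loads peptides onto MHC class I, was at 94.4, 129, 155 and 140 CPM against 219, 257, 171 and 338 CPM (edgeR adjusted p = 0.234). It was called higher without the highest Scrublet scores. For Cd86 and Tapbp CaMKK2 KO mouse 4 was the highest mouse, as it was for the interferon lists.

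Lower values in all CaMKK2 KO mice were found for Syk, a kinase at the B cell receptor, at 429, 393, 352 and 363 CPM against 312, 173, 282 and 218 CPM (edgeR adjusted p = 0.307). Blk, a Src family kinase of B cells, was at 129, 101, 101 and 90.7 CPM against 78.9, 70.0, 68.5 and 53.9 CPM (edgeR adjusted p = 0.338). Klf3, a transcription factor, was at 94.4, 101, 77.5 and 82.4 CPM against 68.2, 28.0, 17.1 and 46.9 CPM (edgeR adjusted p = 0.269). Syk and Blk were the only members of the B cell receptor list, of 20 tested, with no overlap.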
